A study of Mus musculus with 6 samples.

Results

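The AP-1 genes described here are the 10 members of the Fos, Jun and Batf families, Fos, Fosb, Fosl1, Fosl2, Jun, Junb, Jund, Batf, Batf2 and Batf3, out of 19938 genes measured. Each was read by the probe set annotated with that symbol alone, and all 10 had exactly 1 such probe set. The study measured RNA of mouse bone marrow cells 72 hours after transduction with an MSCV retrovirus that expresses MN1, a leukaemia-associated oncogene encoding a transcriptional coregulator, or after transduction with the vector alone (MSCV-IRES-GFP in the sample labels). Both groups held 3 one-colour Affymetrix arrays, and the series description speaks of 3 independent transduction experiments. Reporter-positive cells were sorted in both groups, so every sample is a mixture of marrow cell types that carry a vector. Neither the strain and age of the animals nor the species of the MN1 cDNA is stated in the labels, and no cell type was selected beyond the reporter. The reporter is GFP in the labels and YFP in the series description.

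AP-1 is a family of dimeric transcription factors with a basic leucine zipper. Jun proteins can pair with each other or with a Fos protein, while Fos proteins need a Jun partner, and the dimers bind the TPA response element, TGAGTCA. Fos, Fosb, Jun and Junb are immediate early genes, which are transcribed within minutes of growth factor, cytokine or stress signals and are then shut off again. Fosl1 and Fosl2, the Fra proteins, usually follow later, and Jund is expressed more steadily. Batf and Batf3 are short family members without a transactivation domain. The Batf proteins pair with Jun proteins and, in lymphocytes and dendritic cells, bind composite sites together with interferon regulatory factors.

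The promoters of Fos, Fosb and Jun are shown because these 3 genes had the largest SD of the 10 over the 6 arrays. The sequences are the 130 bases before the transcription start in the RefSeq promoter table (GRCm38.p6), 5′ to 3′ in the direction of the gene. Capitals mark TGACG, the first 5 bases of the cAMP response element, in Fos and Fosb, and TGACATCA, the variant AP-1 site known from the Jun promoter, in Jun.
Fos (chr12:85473760-85473889, plus strand): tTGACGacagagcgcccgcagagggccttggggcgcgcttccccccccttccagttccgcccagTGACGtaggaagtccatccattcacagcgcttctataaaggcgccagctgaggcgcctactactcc
Fosb (chr7:19310046-19310175, minus strand): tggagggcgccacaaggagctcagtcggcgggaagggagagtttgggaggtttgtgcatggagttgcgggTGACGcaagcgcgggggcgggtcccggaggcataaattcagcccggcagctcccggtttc
Jun (chr4:95052223-95052352, minus strand): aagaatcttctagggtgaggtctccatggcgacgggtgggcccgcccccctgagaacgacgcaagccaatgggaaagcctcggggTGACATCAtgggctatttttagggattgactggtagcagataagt

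Promoter windows from 250 bases before to 50 bases after the start were searched on both strands, and 8 of the 10 genes had an entry; Fosl1 and Batf2 did not. The full cAMP response element TGACGTCA was in 0 of the 8 windows and in 1.79% of all 32851 promoters of the table, the TPA response element TGAGTCA in 0 of 8 and 5.2%, and the CArG box in 0 of 8 and 1.63%. Bases further than 250 before the start were not searched, so a CArG box of Fos lying further upstream would not be counted. TGACG was in 4 of 8, those of Fos, Fosb, Junb and Batf, against 20.8% of all promoters. In Fos it began 66 and 129 bases before the start, and in Fosb 60 bases before it. The annotated Fosb gene begins at base 19310118 of chromosome 7, inside the printed window, so its TGACG lies within the gene. TGACATCA was in Jun alone, 45 bases before the start, and in 3.62% of all promoters. TGACG and TGACATCA were added to the search after the values were seen, every full cAMP response element also holds TGACG, and a match is a description of the letters.

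Setting MN1 against the empty vector addresses whether early MN1 expression alters AP-1 transcripts in marrow. As a check of the labels, Mn1 was higher on each MN1 array and read 6.47, 6.62 and 6.08 (log2) with MN1, against 5.34, 5.41 and 4.80 with the empty vector. Its log2 difference was 1.20 ± 0.21 (SE, n = 3 per group, limma adjusted p = 0.584), so Mn1 itself was not called. No AP-1 gene was called different. At an adjusted p under 0.05 (limma, Benjamini-Hochberg over all genes), 0 of 10 members passed, and percent called over all 19938 genes was 0, with a smallest adjusted p of 0.579. At an unadjusted p under 0.05, 1 member passed, Fosl1, against 8.4% of all genes. Differences of at least 1 on the log2 scale were seen in 0 members, against 1.37% of all genes. Of the 10 members, 3 were higher and 7 lower with MN1, and their median log2 difference was -0.10, beside -0.03 for all genes. Each member varied more within the groups than the typical gene: all 10 had a pooled within-group SD above the median of all genes, 0.17, and 0 of the 10 lay among the dimmest 40% of genes. In these sorted mixtures, fewer cells of a type and less RNA per cell cannot be told apart.

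**Figure D1:**
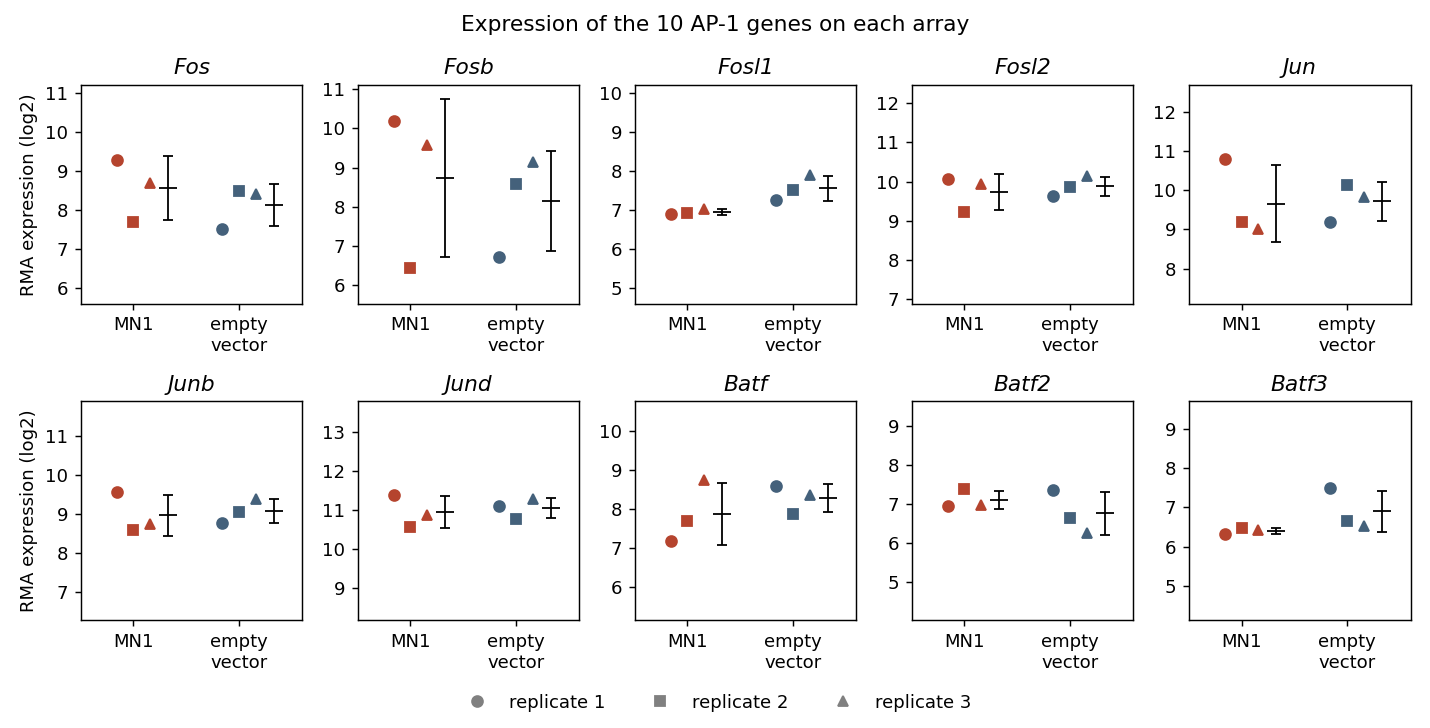
RMA expression (log2, vertical axis) of the 10 AP-1 genes on each array, with MN1 on the left and empty vector on the right of each panel; all panels span the same number of log2 units. Symbols mark the replicate number and bars the mean ± SD of 3 arrays. Fosl1 and Batf3 are the 2 genes whose groups do not overlap, and Fosb has the widest spread, from 6.43 to 10.20.

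Fos, the founding member of the family and the partner of Jun in the classical dimer, read 9.28, 7.68 and 8.70 (log2) with MN1, against 7.50, 8.47 and 8.39 with the empty vector. The groups overlapped: MN1 replicate 2 lay below 2 of the 3 empty vector arrays, and empty vector replicate 1 was the lowest of all. The log2 difference was 0.43 ± 0.45 (SE, n = 3 per group, limma adjusted p = 0.749), with a 95% interval from -0.65 to 1.51.

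Fosb, whose full-length protein and shorter splice form are both induced by acute signals, ranged more widely. It read 10.20, 6.43 and 9.56 with MN1, against 6.70, 8.57 and 9.14 with the empty vector. Within each group 1 array was far below the other 2, replicate 2 with MN1 and replicate 1 with the empty vector. The log2 difference was 0.59 ± 1.09 (SE, n = 3 per group, limma adjusted p = 0.862), and its 95% interval ran from -2.03 to 3.21. The pooled within-group SD of Fosb, 1.69, was larger than that of 99.8% of genes, and that of Fos, 0.69, larger than that of 96.6%. The sign of the Fosb difference rested on single arrays: leaving out MN1 replicate 1 gave -0.14, leaving out empty vector replicate 1 gave -0.12 and leaving out MN1 replicate 2 gave 1.74. For Fos the corresponding values were 0.07, 0.12 and 0.87, all of them positive.

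Fosl1, which encodes Fra-1 and is itself an AP-1 target gene in many cell types, read 6.90, 6.91 and 7.03 with MN1, against 7.25, 7.50 and 7.89 with the empty vector. All MN1 arrays lay below all empty vector arrays, as they did for 10.3% of all genes. Mean levels were 6.94 ± 0.07 on MN1 arrays and 7.55 ± 0.32 on empty vector arrays (SD, n = 3 each), which is a log2 difference of -0.60 ± 0.17 (SE), or 1.52-fold lower with MN1. The unadjusted p was 0.0112, where 4.23% of all genes were lower at an unadjusted p under 0.05. The adjusted p was 0.584 (limma), so the difference was not called. Its 95% interval, from -1.02 to -0.19, is not adjusted for the number of genes. Leaving out each array in turn gave differences from -0.75 to -0.43, all lower with MN1, and an unadjusted p of at most 0.0349.

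Fosl2, which encodes Fra-2, read 10.06, 9.21 and 9.94 with MN1, against 9.64, 9.87 and 10.13 with the empty vector. The groups overlapped and the log2 difference was -0.14 ± 0.25 (SE, limma adjusted p = 0.854). It was 0.12 without MN1 replicate 2, the lowest array.

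**Figure D2:**
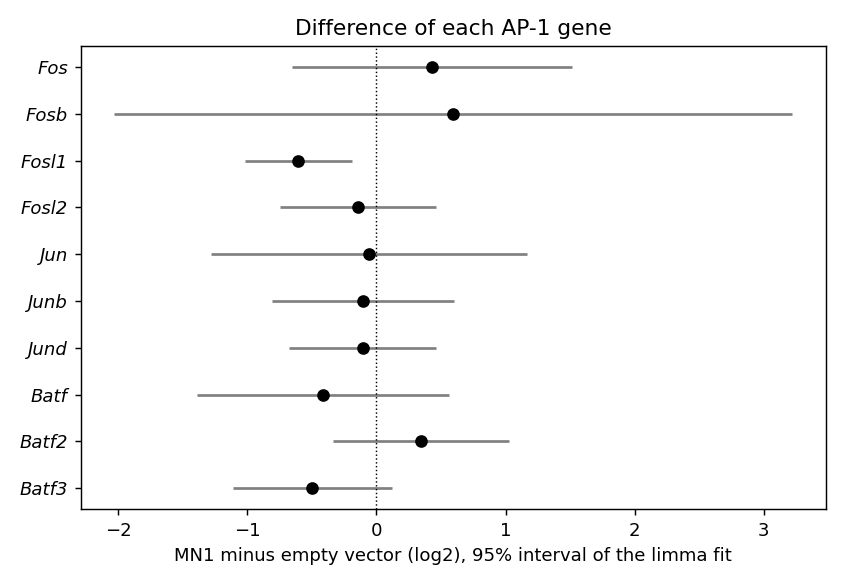
Log2 difference of MN1 minus empty vector (horizontal axis) for each AP-1 gene, with the 95% interval of the limma fit over 3 arrays per group; the dotted line marks 0. The interval of Fosl1, from -1.02 to -0.19, leaves out 0, those of the other 9 genes include it, and none is adjusted for the number of genes.

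Jun, the partner shared by Fos and Batf proteins, read 10.80, 9.19 and 9.003 with MN1, against 9.18, 10.15 and 9.83 with the empty vector. One MN1 array was the highest of the 6 and another the lowest, so that the difference of -0.06 ± 0.51 (SE, log2, n = 3 per group) had a 95% interval from -1.28 to 1.17 (limma adjusted p = 0.976). Without MN1 replicate 1 it was -0.62, and without MN1 replicate 3 it was 0.27.

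Junb, which can dampen Jun activity and restrains myeloid proliferation in mice, read 9.56, 8.58 and 8.73 with MN1, against 8.76, 9.04 and 9.38 with the empty vector. Jund read 11.39, 10.57 and 10.88 with MN1, against 11.11, 10.77 and 11.27 with the empty vector. Both genes were highest on MN1 replicate 1 and lowest on MN1 replicate 2, and the empty vector arrays lay between these. The log2 difference was -0.10 ± 0.29 for Junb (SE, limma adjusted p = 0.914) and -0.11 ± 0.24 for Jund (SE, limma adjusted p = 0.891). For Jund the 95% interval ran from -0.67 to 0.46, the narrowest of the Jun genes.

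Batf, an AP-1 inhibitor in some settings and a lineage factor of T helper cells in others, read 7.17, 7.70 and 8.73 with MN1, against 8.59, 7.88 and 8.36 with the empty vector. MN1 replicates 1 and 2 lay below every empty vector array and MN1 replicate 3 above every one of them. The log2 difference was -0.41 ± 0.41 (SE, n = 3 per group, limma adjusted p = 0.735), -0.84 without MN1 replicate 3 and -0.06 without MN1 replicate 1.

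Batf2, which is induced by interferon in macrophages, read 6.97, 7.39 and 6.98 with MN1, against 7.36, 6.66 and 6.28 with the empty vector. It was the only Batf gene with a higher mean with MN1, at a log2 difference of 0.35 ± 0.28 (SE, limma adjusted p = 0.687). Empty vector replicate 1 lay within the range of the MN1 arrays and the other 2 empty vector arrays below it. The difference was 0.64 without empty vector replicate 1 and 0.10 without empty vector replicate 3.

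Batf3, a factor required for cross-presenting dendritic cells, read 6.32, 6.47 and 6.43 with MN1, against 7.51, 6.66 and 6.54 with the empty vector. The groups did not overlap, with MN1 lower, but empty vector replicate 3 was close to the MN1 arrays and replicate 1 far above them. The log2 difference was -0.50 ± 0.26 (SE, n = 3 per group, unadjusted p = 0.0984, limma adjusted p = 0.597) and -0.19 without empty vector replicate 1. Fosl1 and Batf3 were thus the 2 of 10 members with non-overlapping groups, and in both the MN1 arrays were lower. Over all genes, the MN1 arrays were lower without overlap for 10.3% and higher for 5.71%.

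Marker lists of other cell types are given beside Fosl1 and Batf3. Of all 19938 genes, 8628 were higher and 11310 lower with MN1. Of 11 measured T and natural killer cell markers, 8 were lower with MN1, and 7 lay among the dimmest 40% of genes. Their mean levels were 5.53 to 5.90 (log2) over the MN1 arrays, against 5.94 to 6.02 over the empty vector arrays. Neutrophil markers, 13 of 14 lower, lay at 9.26 to 10.04 with MN1 and 8.80 to 12.04 with the empty vector. Eosinophil, basophil and mast cell markers, 11 of 12 lower, lay at 8.84 to 9.81 with MN1 and 8.98 to 10.16 with the empty vector. B cell markers, 5 of 9 higher, lay at 6.39 to 7.43 with MN1 and 5.89 to 7.78 with the empty vector. Erythroid markers, 7 of 8 lower, had mean levels of 6.79 to 7.46 with MN1 and 7.47 to 7.87 with the empty vector. Monocyte and macrophage markers, 10 of 14 higher, lay at 9.96 to 10.59 with MN1 and 9.61 to 9.83 with the empty vector, and stem and progenitor markers, 9 of 11 higher, at 8.75 to 9.40 with MN1 and 7.97 to 8.50 with the empty vector. Megakaryocyte markers, 7 of 7 higher, lay at 9.33 to 11.25 with MN1 and 8.44 to 9.85 with the empty vector, and stromal and endothelial markers, 8 of 10 lower, at 6.21 to 6.45 with MN1 and 6.23 to 6.41 with the empty vector. For dendritic cells, 6 of 12 markers had a higher mean and 6 a lower one, and their mean levels overlapped, at 6.75 to 7.25 with MN1 and 6.89 to 7.28 with the empty vector. In that list 4 markers were lower with MN1 without overlap and 1, Flt3, was higher, against 10.3% and 5.71% of all genes. Among the 4 was Zbtb46, a factor of classical dendritic cells, at -0.38 ± 0.10 (SE, log2). Xcr1 and Clec9a, the defining markers of the dendritic cells that need Batf3, differed by -0.22 and 0.23 and were at most 4.99 and 4.38 on any array, among the dimmest 40% of genes. The part of these cell types in the values of Fosl1 and Batf3 was not tested.

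Of the 10 members, Fos, Fosb and Fosl2 had their 2 lowest values on MN1 replicate 2 and empty vector replicate 1. So did 13 of 26 other immediate early genes measured, against 6.52% of all genes. A looser count took genes for which each of these arrays was the lowest of its own group. It held for 4 members, Junb being the added one, for 16 of those 26 genes and for 11.8% of all genes. Junb read 8.73 on MN1 replicate 3 and 8.76 on empty vector replicate 1. Jun read 9.003 on MN1 replicate 3, 9.18 on empty vector replicate 1 and 9.19 on MN1 replicate 2. The 13 include Egr1, a zinc finger factor of the early growth response, Dusp1, a phosphatase that switches off MAP kinases, and Nr4a1, an orphan nuclear receptor. This arrangement of arrays was noticed in the members and then counted in the list, so it is a description. Over all genes, the deviations of MN1 replicate 2 and empty vector replicate 1 from their group means had a correlation of 0.44. That was the highest of any MN1 array with any empty vector array. Nr4a1 read 9.09, 7.54 and 10.91 with MN1, against 7.50, 9.92 and 10.63 with the empty vector. Dusp1 read 12.29, 10.02 and 10.69 with MN1, against 9.71, 11.18 and 11.09 with the empty vector. Across the 26 genes, the mean deviation from each gene's own mean was 0.61, -0.45 and -0.05 (log2) on MN1 replicates 1, 2 and 3, and -0.31, 0.04 and 0.16 on empty vector replicates 1, 2 and 3.

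**Figure D3:**
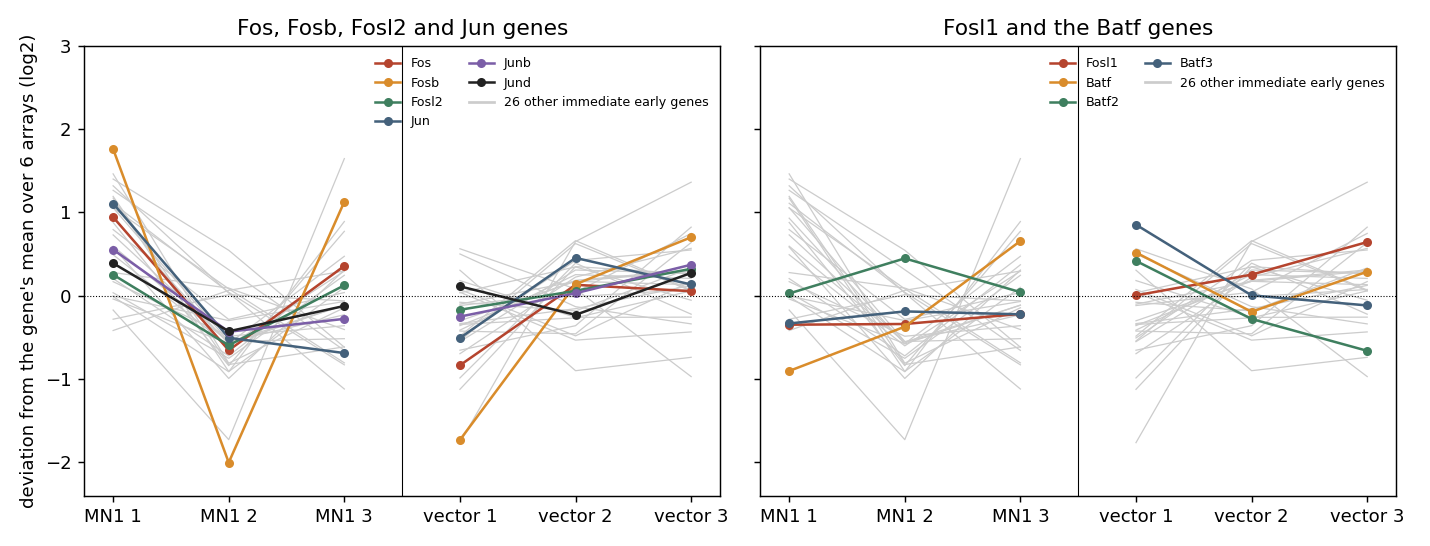
Deviation of each gene from its own mean over the 6 arrays (log2, vertical axis) on the 3 MN1 arrays and the 3 empty vector arrays; lines join the arrays of a group for reading only, since replicates have no order. Coloured lines are AP-1 genes, named in the legends, and grey lines the 26 other immediate early genes. Fos and Fosb dip on MN1 replicate 2 and empty vector replicate 1 with many grey lines, while the 4 genes on the right have their lowest values on other arrays.

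No other immediate early gene was called: 11 were higher and 15 lower with MN1, the median log2 difference was -0.02, 0 passed the adjusted threshold and 0 an unadjusted p under 0.05. The 4 with the largest differences were Sgk1, a kinase gene, at 0.89 ± 0.56 (SE, log2), Rhob, a small GTPase gene, at 0.62 ± 0.47, Egr1 at 0.54 ± 0.55 and Nr4a3, an orphan nuclear receptor gene, at -0.45 ± 0.28. Of 10 measured heat shock and chaperone genes, 0 had their 2 lowest values on those 2 arrays, a share near the 6.52% of all genes, and the median log2 difference was 0.01, with 5 higher and 5 lower.

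Fosb and Jun had the largest SD over all 6 arrays, and the genes with the most similar profiles were therefore sought for them, as the smallest root mean square distance between mean-centred log2 profiles over the 6 arrays. For Fosb the closest of 19937 genes was Nfkbiz, which encodes an inducible regulator of NF-kappa B, at a distance of 0.32, where the median gene lay at 1.43. Nfkbiz read 10.65, 7.30 and 9.91 with MN1, against 7.70, 8.88 and 10.23 with the empty vector. Errfi1, a feedback inhibitor of the EGF receptor, Phyh, a peroxisomal enzyme gene, and Egr1 followed at 0.73, 0.78 and 0.79. For Jun the closest were Klf4, a Kruppel-like factor, at 0.16, Trib1, a pseudokinase gene, at 0.17, Hspa1a, an inducible heat shock protein gene, at 0.21 and Zfp36, which promotes mRNA decay, at 0.26, where the median gene lay at 0.66. A gene with the same value on every array would lie 1.41 from Fosb and 0.64 from Jun. The median distances thus mostly reflect the spread of these 2 genes themselves. These 6 arrays are few for such a measure. Among the members, the smallest distances were those of Junb and Jund, 0.21 apart, and of Fosl2 and Jund, also 0.21 apart. Such distances are small between genes that vary little, whatever their pattern. The SD over the 6 arrays was 0.31 for Jund, 0.34 for Fosl2 and 0.39 for Junb. Fos and Fosb, which share their 2 lowest arrays, were 0.85 apart.

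Some values of other cell types and of sex-linked genes are given beside the Fosb profile, which they match only in part. The mean level of 9 measured B cell markers was 7.28, 6.39 and 7.43 (log2) on MN1 replicates 1, 2 and 3, against 6.53, 5.89 and 7.78 on empty vector replicates 1, 2 and 3. The mean level of 12 eosinophil, basophil and mast cell markers was 8.84, 9.81 and 8.98 with MN1, against 10.16, 10.16 and 8.98 with the empty vector. The mean level of 14 neutrophil markers was 9.26, 10.04 and 9.34 with MN1, against 11.002, 12.04 and 8.80 with the empty vector. These lists differed in the opposite sense, B cell markers being high where the granulocyte markers were low. The Y-linked gene Eif2s3y read 8.26, 7.04 and 8.57 with MN1, against 6.72, 3.43 and 8.24 with the empty vector. Uty, also Y-linked, read 7.17, 5.90 and 7.62 with MN1, against 5.49, 3.69 and 6.96. Xist, expressed in female cells, read 9.45, 9.79 and 9.02 with MN1, against 9.52, 10.25 and 8.70. These genes follow the sex of the animals rather than a cell type. On all these measures MN1 replicates 1 and 3 and empty vector replicate 3, where Fosb was highest, lay on one side of the other arrays. Other marker lists, among them the monocyte and macrophage markers, did not all split the arrays this way. Fosb did not follow these measures on empty vector replicate 2, where it read 8.57 and was intermediate. On that array Eif2s3y, Uty and the B cell markers were at their lowest, and Xist and the neutrophil markers at their highest. Fosb was instead lowest on MN1 replicate 2 and empty vector replicate 1, at 6.43 and 6.70. The part of these differences in the Fosb values was not tested.

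The related gene lists were chosen by function, with earlier results of these data known, and described by the same fit. Of 24 measured bZIP genes outside the 10, which can pair with AP-1 proteins or belong to sister families, 15 were higher and 9 lower with MN1, with a median of 0.04 (log2); 0 passed the adjusted threshold. The largest differences were in Ddit3, the stress factor CHOP, at 0.68 ± 0.27 (SE, limma adjusted p = 0.584), Maf, a macrophage factor, at 0.68 ± 0.44, Bach2, a repressor in lymphocytes, at -0.39 ± 0.41, and Atf3, a stress-induced partner of Jun, at 0.33 ± 0.33. The groups overlapped for each of these 4.

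Upstream of AP-1, 11 of 16 measured kinase cascade genes were higher and 5 lower with MN1, with a median of 0.07; 0 were called and 2 passed an unadjusted p under 0.05, against 8.4% of all genes. These 2 were Mapk9, which encodes the Jun kinase JNK2, at 0.34 ± 0.14 (SE, log2, limma adjusted p = 0.584), and Rps6ka3, which encodes a kinase downstream of ERK, at 0.27 ± 0.11. Mapk9 read 8.82, 8.99 and 9.28 with MN1, against 8.78, 8.59 and 8.70 with the empty vector. The groups did not overlap for 3 of the 16 genes, against 16% of all genes, with Mapk9 and Rps6ka3 higher and Mapk8ip1 lower with MN1. Map3k8, a kinase of the ERK cascade in macrophages, differed by 0.55 ± 0.38 and Mapk8ip1, a JNK scaffold, by -0.23 ± 0.10. Of 7 measured genes of serum response factor and its cofactors, which drive Fos through the CArG box, 4 were higher and 3 lower, at a median of 0.01. The largest differences there were -0.26 ± 0.18 in Mrtfa, 0.15 ± 0.24 in Mrtfb, 0.13 ± 0.14 in Elk1 and -0.12 ± 0.14 in Srf (SE).

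Of 11 genes whose products degrade AP-1 proteins or modify their activity, 8 were higher and 3 lower with MN1, with a median of 0.06 and 0 calls. Ncoa1 and Ncoa3, nuclear receptor coactivators that also bind AP-1, differed by 0.46 ± 0.29 and 0.29 ± 0.11 (SE, log2). Cop1 and Itch, ubiquitin ligases that target Jun proteins, differed by 0.22 ± 0.14 and 0.22 ± 0.11. For Ncoa3 and Itch, 2 of the 11, the groups did not overlap, with MN1 higher, as for 5.71% of all genes. The list's median was 0.21 without MN1 replicate 1 and 0.17 without empty vector replicate 2.

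Of 23 measured genes known as AP-1 targets, 14 were higher and 9 lower with MN1, with a median of 0.11, and leaving out single arrays moved that median between -0.06 (empty vector replicate 2 omitted) and 0.25 (MN1 replicate 3 omitted). Differences of at least 1 on the log2 scale were seen in 4, 2 in each direction, against 1.37% of all genes. None passed the adjusted threshold, and 3, Il6, Ccl2 and Mmp9, passed an unadjusted p under 0.05, against 8.4% of all genes. Il6, a proinflammatory cytokine gene, read 8.77, 9.02 and 9.99 with MN1, against 10.31, 10.14 and 10.56 with the empty vector. Its groups did not overlap, and the log2 difference was -1.08 ± 0.32 (SE, limma adjusted p = 0.584). Ccl2, a monocyte chemokine gene, read 11.01, 10.31 and 10.46 with MN1, against 10.07, 7.92 and 9.64 with the empty vector. Its log2 difference was 1.38 ± 0.55 (SE, limma adjusted p = 0.584), without overlap. Ctsk, the osteoclast protease cathepsin K, differed by 1.49 ± 0.67 and S100a8, a calgranulin gene, by -1.32 ± 0.63, both with overlapping groups. Mmp9 differed by -0.97 ± 0.32 (SE), without overlap. Both S100a8 and Mmp9 also stand in the neutrophil list. The neutrophil markers, 13 of 14 lower with MN1, had mean levels of 9.26 to 10.04 with MN1 and 8.80 to 12.04 with the empty vector, and the monocyte and macrophage markers given above were higher; their part in the target gene values was not tested.

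**Figure D4:**
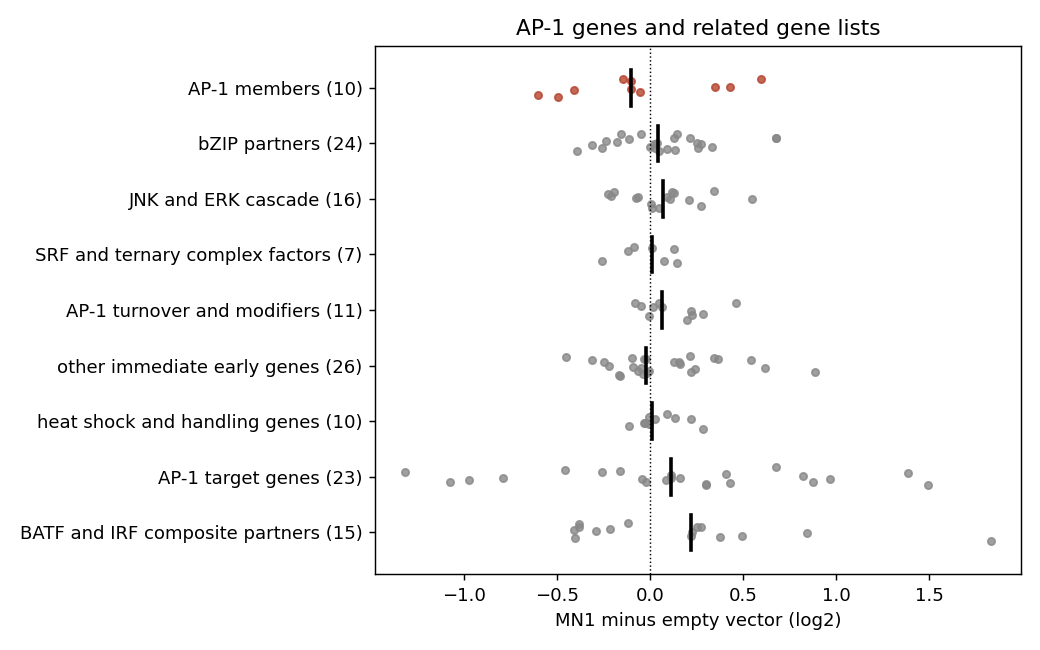
Log2 difference of MN1 minus empty vector (horizontal axis), a point per gene, for the 10 AP-1 genes and 8 related gene lists, with the number of measured genes in brackets; vertical position within a row is only spread for legibility, and bars mark medians. The medians lie between -0.10 and 0.22, and the AP-1 targets spread from -1.32 to 1.49.

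Among 15 genes linked to BATF proteins and their interferon regulatory factor partners, 8 were higher and 7 lower with MN1, with a median of 0.22, and -0.12 without MN1 replicate 1. The list held 0 calls and 5 genes past an unadjusted p under 0.05, against 8.4% of all genes: Flt3 and Tlr3, which were higher, and Zbtb46, Ccr6 and Xcr1, which were lower. Without overlap, 2 of the 15 were higher with MN1 and 5 lower, against 5.71% and 10.3% of all genes, and 8 of the 15 lay among the dimmest 40% of genes. Flt3, the receptor that supports dendritic cell progenitors and early stem and progenitor cells, was the largest at 1.83 ± 0.39 (SE, log2, limma adjusted p = 0.584). Tlr3, a receptor for double-stranded RNA, followed at 0.84 ± 0.14 (limma adjusted p = 0.579), at levels of 5.32 with MN1 and 4.48 with the empty vector. Il10, a target of Batf-containing complexes in T cells, differed by 0.50 ± 0.43 and Itgae, an integrin gene of dendritic cells and T cells, by -0.41 ± 0.24, both with overlapping groups.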

How the data were processed

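Biotin-labelled cDNA targets were prepared from 200 ng of total RNA per sample and read on one-colour Affymetrix whole-transcript arrays, as the label protocols describe. The authors deposited log2 expression values per probe set; per the submitters' processing notes they come from RMA, which corrects background, normalizes between arrays and summarises probes. RMA pulls dim values together, so differences of dim genes are understated. Its version, and the set of arrays it was run on, are not given in the sources. The log2 scale follows from the range of the values, 2.29 to 14.80. Array medians lay between 5.82 and 6.01.

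All 6 columns were used. Of 35557 probe sets, 21789 carry 1 gene symbol in the platform annotation of 2016, 1621 several and 12147 are not named there; the probe set with the highest mean was kept per gene, which left 19938 genes. The test was limma 3.58.1 in R 4.3.3 (lmFit, eBayes, two-sided, Benjamini-Hochberg over all genes, threshold 0.05), checked on simulated data. It had 4 residual and 2.43 prior degrees of freedom. Intervals are 95%. The labels do not say that arrays of a group came from separate animals, so p-values may measure partly technical spread, and 3 arrays per group limit the precision. Among the empty vector arrays, Eif2s3y ranged from 3.43 to 8.24 and Xist from 8.70 to 10.25, in the opposite order. The mix of male and female cells was therefore not the same on these arrays.

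Same-numbered arrays were not treated as pairs: the correlations of their deviations from the group means, across genes, were 0.13, 0.07 and 0.32 for numbers 1, 2 and 3. Correlations of unlike-numbered arrays ran from -0.50, for MN1 replicate 3 with empty vector replicate 1, to 0.44, for MN1 replicate 2 with empty vector replicate 1. The members and gene lists were chosen with earlier results of these data known. Genes named are the 10 members, Mn1, the 4 with the largest absolute difference in each related list, and the 4 most similar profiles for the 2 members with the largest SD. Dusp1, Nr4a1, Xcr1, Clec9a, Zbtb46, Ccr6, Mmp9, Eif2s3y, Uty and Xist were named after their values were seen. Protein sequences were not used here, and gene coordinates only to place the Fosb promoter window.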

Additional observations from a re-analysis of the deposited data

How the results depend on the processing

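Each member's difference was recomputed under 14 alternatives: the replicate block, median-centring, quantile normalization, removal of the dimmest 40% of genes, probe sets averaged per gene, all probe sets tested singly, an intensity trend with robust prior, array weights, and each of 6 arrays left out. Of 140 such values, 0 were called and 129 kept their direction; the other 11 reversed, all with an array left out. Leaving out 1 array gave -0.14 to 1.74 for Fosb, -0.31 to 0.12 for Fosl2, -0.62 to 0.27 for Jun, -0.41 to 0.088 for Junb and -0.33 to 0.082 for Jund. It gave 0.07 to 0.87 for Fos, -0.75 to -0.43 for Fosl1, -0.84 to -0.06 for Batf, 0.10 to 0.64 for Batf2 and -0.68 to -0.19 for Batf3, with no change of direction. The number of members past an unadjusted p of 0.05 was 1 to 2, with non-overlapping groups 2 to 4 (4 without MN1 replicate 2, where Fos and Fosb joined and 31.1% of all genes did not overlap) and with at least a 2-fold difference 0 to 1. With the replicate number as a block, the difference of Fosl1 was -0.60 with an adjusted p of 0.500 (limma), and 0 members were called. The adjusted p of Fosl1 ran from 0.500 to 0.935 over all settings. Of 112 medians of related lists, 3 moved by more than the spread between arrays, all with an array left out. The median difference of all genes was -0.03 after median-centring and -0.02 after quantile normalization. Depth has no counterpart here: 3 arrays per group and wide intervals limit what could be seen.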
